A study of Mus musculus with 17 samples.

Results

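Gpr155, Sucnr1, Dsg1c, Adh1, Adamtsl2 and Syne3 are 6 of the 24676 genes measured in the livers of mice with floxed Gata4 alleles. They were picked because the labelled genotypes, Gata4LKO and control, differed in their values, and their products serve neither a common pathway nor a classical lipid family. All 6 symbols matched 1 gene each in the deposited table, and all 6 passed the filter on low values that left 13379 genes for testing. The genotype differences of these genes are therefore descriptions, without a test. Their response to GW3965, averaged over both genotypes, was not used to pick them and was tested.

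All animals were male, of mixed strain and 11 weeks old, and carried floxed Gata4. In the Gata4LKO arm an adeno-associated virus of serotype 8 (AAV8) delivered Cre recombinase from Tbg, a hepatocyte-directed promoter, and in the control arm an empty AAV8 was injected, so that Cre and Gata4 genotype cannot be told apart. The virus was given 1 week before, at 10 weeks of age; these ages are those of the sample labels, and the series text gives a younger one. Within each arm, mice received by gavage either 40 mg/kg of GW3965, a drug that activates liver X receptors, or DMSO vehicle, both in canola oil, at 17 h and again at 8 h ahead of sacrifice, which followed a 4 h fast. Control vehicle, Gata4LKO vehicle and control GW3965 had 4 libraries each and Gata4LKO GW3965 had 5. The groups follow the sample titles; the treatment label contradicts the title in 8 libraries, those of Gata4LKO vehicle and control GW3965.

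GATA4 is a zinc-finger transcription factor that binds short DNA elements with a GATA core and takes part in the development and identity of liver cells. The 6 genes have separate roles. Adh1 encodes the class I alcohol dehydrogenase, a cytosolic liver enzyme that oxidizes ethanol and retinol. Sucnr1 encodes a G protein-coupled receptor for succinate outside the cell. Gpr155 encodes a membrane protein which, in human cells, resides on lysosomes, senses cholesterol there and signals to the growth kinase complex mTORC1; in that sense this gene stands close to sterol biology. Dsg1c encodes a desmosomal cadherin, a protein of cell-to-cell junctions, and Syne3 encodes nesprin-3, a protein of the outer nuclear membrane that ties the nucleus to intermediate filaments through plectin. Adamtsl2 encodes a secreted glycoprotein that resembles the ADAMTS proteases without their catalytic domain and binds to fibrillin microfibrils.

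Promoters of 5 of the 6 genes were available from RefSeq (build GRCm38.p6), each with 250 bases before and 50 after the annotated start. They were searched on both strands for the GATA hexamers AGATAA or TGATAA, with a final A, and AGATAG or TGATAG, with a final G, because Gata4 was the targeted gene. Of 32851 promoters of the same length, 29.8% held at least 1 of them. Adh1 held 2 and Syne3 held 1, and no hexamer lay in the windows of Gpr155, Sucnr1 and Adamtsl2. A match is a description of the letters and not a binding site. Windows are shown for 4 genes, the pair with hexamers and the pair with the highest and the lowest GC content, 5′ to 3′ on the strand of the gene, with the hexamers in capitals.
Adh1, chr3:138277335-138277634, plus strand: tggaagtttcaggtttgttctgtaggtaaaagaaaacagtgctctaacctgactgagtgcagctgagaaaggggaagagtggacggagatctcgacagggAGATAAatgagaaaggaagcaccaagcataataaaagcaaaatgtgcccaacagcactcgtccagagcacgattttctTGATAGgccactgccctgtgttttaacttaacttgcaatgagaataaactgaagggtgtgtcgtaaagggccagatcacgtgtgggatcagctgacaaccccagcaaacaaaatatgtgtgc
Syne3, chr12:104998628-104998927, minus strand: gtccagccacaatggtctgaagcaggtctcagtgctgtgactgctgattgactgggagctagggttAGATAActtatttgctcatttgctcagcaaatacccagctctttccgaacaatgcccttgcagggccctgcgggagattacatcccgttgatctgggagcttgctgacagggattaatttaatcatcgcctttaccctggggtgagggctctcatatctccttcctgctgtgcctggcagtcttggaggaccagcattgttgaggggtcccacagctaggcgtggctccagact
Gpr155, chr2:73386431-73386730, minus strand: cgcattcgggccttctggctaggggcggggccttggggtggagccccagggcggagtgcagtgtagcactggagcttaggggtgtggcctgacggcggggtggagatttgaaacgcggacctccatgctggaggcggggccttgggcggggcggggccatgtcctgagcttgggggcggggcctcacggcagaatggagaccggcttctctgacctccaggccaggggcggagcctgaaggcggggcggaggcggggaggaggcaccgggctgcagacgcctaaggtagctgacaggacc
Sucnr1, chr3:60081619-60081918, plus strand: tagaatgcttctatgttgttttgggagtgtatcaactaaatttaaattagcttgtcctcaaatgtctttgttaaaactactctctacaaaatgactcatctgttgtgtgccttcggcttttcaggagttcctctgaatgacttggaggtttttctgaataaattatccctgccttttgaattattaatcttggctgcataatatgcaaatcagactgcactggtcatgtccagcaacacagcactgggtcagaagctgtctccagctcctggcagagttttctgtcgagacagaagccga
In Adh1 the hexamers AGATAA and TGATAG began 150 and 72 bases before the start, and in Syne3 AGATAA began 184 bases before it. The Gpr155 window was 70.3% G or C and held 20 CpG dinucleotides, more GC-rich than 90.9% of all promoters. The Sucnr1 window was 40.7% G or C with 3 CpG dinucleotides and exceeded 11.4% of promoters. Both genes had lower values in the libraries labelled Gata4LKO. For Adh1 and Syne3 the RefSeq start lies inside the gene as GENCODE annotates it, downstream of its outermost start.

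Reads in genes numbered 11.8 M to 22.05 M per library. Values are the authors' normalized counts, and means are given ± SD over libraries. Gata4 itself did not follow the labels: with vehicle, control libraries had 128, 169, 183 and 132 normalized counts and libraries labelled Gata4LKO had 181, 137, 234 and 223. With GW3965, controls had 164, 254, 258 and 209 and the Gata4LKO group 259.9, 194, 244, 159.9 and 239. A whole-gene count includes reads outside a deleted part, so this checks the labels only in part, and the genotype groups are named here by their labels. Mitochondrially encoded genes took 15.6% to 32.6% of counts in 5 libraries, and 6.06% to 7.26% in the other 12. The 5 were control vehicle replicate 1, control GW3965 replicates 10 and 13, and Gata4LKO GW3965 replicates 17 and 18. The pseudogene Gm5345 was at 1.64 or less in all 4 Gata4LKO vehicle libraries and in replicates 9 and 10 of control GW3965, and at 23.1 or more in the other 11. With vehicle, that split and genotype cannot be told apart. Hepatocyte markers were abundant throughout, and in bulk liver RNA fewer cells of a type and less RNA per cell cannot be told apart.

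Per kilobase of exon, Adh1 stood far above the rest, at 7937 normalized counts per kb over all libraries, the 90th highest of 13373 genes with a length. Sucnr1 followed at 223, Gpr155 at 115 and Dsg1c at 79.96 normalized counts per kb. Syne3, at 23.5, and Adamtsl2, at 11.9, lay in the lower part of the range, above 35.2% and 23.05% of genes. In control vehicle livers the order was the same, and levels per kb of Gpr155 (156 ± 15.4) and Dsg1c (134 ± 18.6) lay within their spread of each other, as did those of Syne3 (14.3 ± 0.78) and Adamtsl2 (12.7 ± 2.16). The low members rest on few reads, 31 to 180 per library for Adamtsl2 and 31 to 281 for Syne3, against 7750 to 32300 for Adh1.

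**Figure D1:**
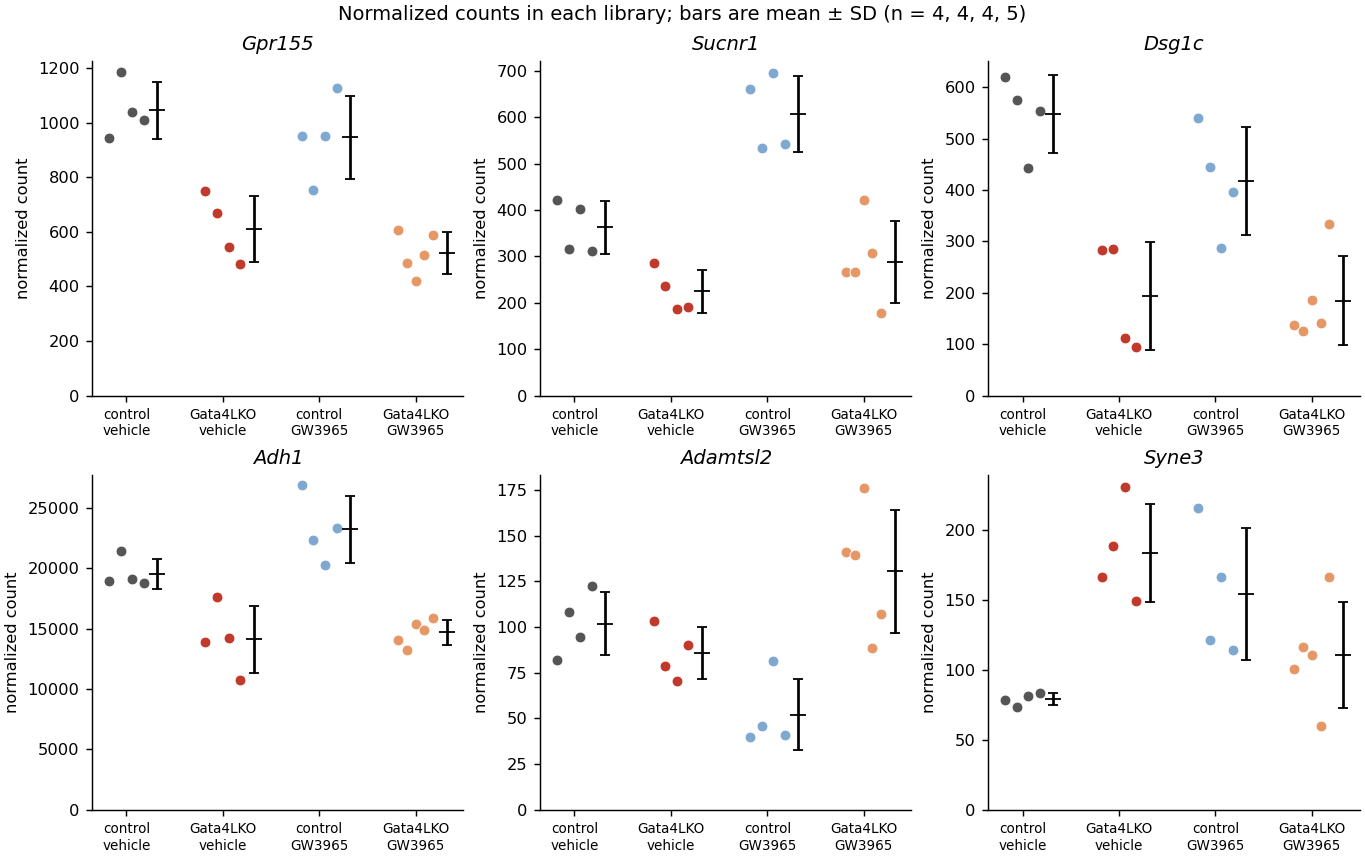
Normalized counts of the 6 genes (vertical axes, from 0) in each of the 17 libraries, by group (horizontal axes). Coloured points are libraries and the black bars show the group mean ± SD; Adh1, Sucnr1 and Gpr155 are lower in all Gata4LKO libraries than in any control of the same treatment, while Adamtsl2 separates with GW3965 and Syne3 with vehicle.

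Adh1 (ENSMUSG00000074207; chromosome 3, 138260991 to 138290698, plus strand, mm10) was lower in the libraries labelled Gata4LKO with either treatment. The control vehicle libraries had 18971, 21404, 19119.5 and 18773 normalized counts and the Gata4LKO vehicle libraries 13920.4, 17607, 14223 and 10789. With GW3965, the controls had 26921, 22358, 20284 and 23389 and the Gata4LKO libraries 14051, 13257, 15387, 14934 and 15893. Every Gata4LKO library was below every control library, of either treatment. In the limma fit of log2(normalized count + 1), the difference ± SE was -0.49 ± 0.14 with vehicle and -0.66 ± 0.13 with GW3965, or ratios of the means of 0.722 and 0.633. For a gene this abundant the Gata4LKO groups still had 14135 ± 2787 and 14704 ± 1055 normalized counts. An antisense gene, Gm16559, overlaps Adh1 on the other strand. It extends beyond the end of Adh1, to 138307022, and had group means of 11.4 to 20.7 normalized counts, beside 14135 to 23238 for Adh1. Where they overlap, reads of Gm16559 and Adh1 cannot be told apart, since no strand setting is stated.

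Sucnr1 (ENSMUSG00000027762; chromosome 3, 60081869 to 60087566, plus strand) was lower in the Gata4LKO libraries as well, and its highest values came from controls given GW3965. With vehicle the controls had 421, 316, 402 and 312 normalized counts and the Gata4LKO libraries 286, 237, 186 and 191. With GW3965 the controls had 660.1, 533, 695 and 542 and the Gata4LKO libraries 265, 267, 423, 308 and 179. The groups did not overlap within either treatment, but replicate 16 of Gata4LKO GW3965, at 423, was above all control vehicle libraries. The differences were -0.69 ± 0.21 with vehicle and -1.12 ± 0.20 with GW3965 (log2). The spread between Gata4LKO GW3965 libraries was the widest for this gene, an SD of 30.7% of the mean against 13.5% in controls given GW3965.

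Gpr155 (ENSMUSG00000041762; chromosome 2, 73341506 to 73386572, minus strand) had nearly the same genotype difference with both treatments. The control vehicle libraries had 944, 1187, 1038 and 1009 normalized counts against 749, 668, 544 and 483 in Gata4LKO vehicle. With GW3965 the controls had 953, 754, 951 and 1128 against 607, 486, 419.6, 516 and 588. Every Gata4LKO library of either treatment was below every control library, although the closest pair, 749 and 754, nearly met. The log2 differences were -0.79 ± 0.16 and -0.85 ± 0.15. When libraries with Gm5345 reads had a term of their own in the fit, an alternative added after the data were seen, the vehicle difference was -0.50 and the GW3965 difference -0.996. Only control GW3965 held libraries with and without such reads, so that group alone set the term. The shift with vehicle therefore carries no information from vehicle libraries.

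Dsg1c (ENSMUSG00000034774; chromosome 18, 20247340 to 20285031, plus strand) had the largest log2 difference of the 6 with vehicle, and in both Gata4LKO groups its SD was the largest of the 6 relative to the mean. The controls had 620.3, 576, 442 and 554 normalized counts with vehicle and 539, 445, 287 and 396 with GW3965. The Gata4LKO vehicle libraries had 283, 285, 112 and 93.8, a high pair and a low pair. In Gata4LKO GW3965, 4 libraries had 137, 126, 186 and 141 and replicate 18 had 335. That library was above replicate 12 of control GW3965, so the groups overlapped with GW3965 and not with vehicle. The log2 differences were -1.66 ± 0.35 and -1.23 ± 0.33, and the second was -1.47 without replicate 18. The SD was 54.1% of the mean in Gata4LKO vehicle and 47.1% in Gata4LKO GW3965, against 13.9% in control vehicle. The near-identical gene Dsg1b was at 0 in 14 libraries and at most at 2.53 normalized counts, so reads assigned to that copy were few.

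Syne3 (ENSMUSG00000054150; chromosome 12, 104929933 to 105009809, minus strand) had the opposite sign, and only with vehicle did its genotype groups separate. The control vehicle libraries lay close together at 78.3, 73.5, 81.4 and 83.5 normalized counts, and the Gata4LKO vehicle libraries had 166, 188, 231 and 149. With GW3965 the controls had 216, 121, 166 and 114 and the Gata4LKO libraries 101, 116, 110.4, 59.7 and 166. All Gata4LKO vehicle libraries were thus above all control vehicle libraries, while with GW3965 the Gata4LKO libraries spread across the range of the controls and below it. The log2 difference was 1.19 ± 0.25 with vehicle and -0.50 ± 0.24 with GW3965. The latter was -0.79 without the 5 libraries of high mitochondrial share and -0.30 without replicate 17 of Gata4LKO GW3965. Compared with the same control vehicle libraries, controls given GW3965 were also higher without overlap, by 0.91 ± 0.25, and in the Gata4LKO arm GW3965 libraries were lower than vehicle by -0.78 ± 0.24. The difference between these 2 responses was -1.69 ± 0.35, given without a test because it contains the genotype differences the gene was picked on. Among all tested genes, 0.658% were above every control vehicle library in both Gata4LKO vehicle and control GW3965, as Syne3 was.

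Adamtsl2 (ENSMUSG00000036040; chromosome 2, 27079379 to 27108981, plus strand) separated by genotype with GW3965 and not with vehicle. With vehicle, controls had 82.1, 108, 94.6 and 122 normalized counts and Gata4LKO libraries 103, 78.9, 70.6 and 90.2. With GW3965, controls had 40.01, 46.0, 81.3 and 41.2 and Gata4LKO libraries 141, 139.7, 176, 88.6 and 107. The vehicle groups overlapped. With GW3965 every control library was below every Gata4LKO library. Of the control GW3965 libraries, 3 were also below all vehicle libraries, and replicate 12, at 81.3, exceeded 2 of the Gata4LKO vehicle libraries. The log2 difference was 1.33 ± 0.23 with GW3965 and -0.24 ± 0.24 with vehicle, and with the Gm5345 term the vehicle value turned to 0.18. As for Gpr155, that shift was set by the control GW3965 libraries alone. GW3965 libraries differed from vehicle by -0.999 ± 0.24 in control and by 0.57 ± 0.23 in Gata4LKO. The difference of these responses was 1.57 ± 0.34, again a description. The authors' deposited table gives log2 fold changes of 1.57 for Adamtsl2 and -1.69 for Syne3 in the same interaction.

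Markers of stellate cells and fibroblasts, which deposit extracellular matrix, moved beside Adamtsl2 in the genotype difference with GW3965. Of 12 markers, 11 were higher in Gata4LKO GW3965 than in control GW3965. The median genotype difference was 0.47 (log2) against -0.01 over all genes tested. Limma called none of the markers over all genes (7 at an unadjusted p below 0.05, edgeR 0 and DESeq2 1). The summed normalized counts of these markers were 5617 to 8060.3 in Gata4LKO GW3965 and 4304 to 5591 in control GW3965, without overlap. That sum rested mainly on Dcn (1859 ± 172 in control GW3965 and 2859 ± 623 in Gata4LKO GW3965) and Reln (876 ± 126 and 1250 ± 153). No marker was at 0 in either group. The part of these markers in the Adamtsl2 values was not tested.

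With vehicle, summed levels of markers of 3 cell classes separated the genotypes, although limma called no marker of them. The 11 markers of Kupffer cells and macrophages summed to 4219.7 to 5155 in Gata4LKO vehicle and 2429 to 3385 in control vehicle, and the 10 leukocyte markers to 1364 to 2379.9 and 757 to 1206. Of the tested markers, 11 of 11 Kupffer cell markers and 4 of 8 leukocyte markers had positive differences. Of these lists 9 and 3 markers were at an unadjusted p below 0.05 (edgeR 0 and 0, DESeq2 3 and 0). The leukocyte sum rested mainly on Cd74 (means of 555 in control and 1082 in Gata4LKO) and H2-Aa (258 and 565), while Ly6c2, S100a8, S100a9 and Itgax had negative differences. The 8 hepatocyte markers, 0 of 8 positive, summed to 1464390 to 1710250 normalized counts in Gata4LKO vehicle and 1836190 to 2012570 in control vehicle. That sum rested mainly on Alb (means of 1377920 in control and 1084010 in Gata4LKO). Single hepatocyte markers differed by -0.74 (Tat) to -0.02 (Hnf4a), and 2 were at an unadjusted p below 0.05 (edgeR 0, DESeq2 0). No marker of these lists was at 0 in a whole group. In control GW3965 the Kupffer cell sum was 4239 to 7071, also above control vehicle, as Syne3 was. These ranges did not overlap either, and their part in the vehicle differences of Adh1, Gpr155, Sucnr1, Dsg1c and Syne3 was not tested.

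Counted over the 6 genes, the groups did not overlap with vehicle for 4 lower genes (Adh1, Sucnr1, Gpr155 and Dsg1c), a pattern that 3.58% of the 13379 tested genes shared, and for 1 higher gene (Syne3; 3% of genes). With GW3965, 3 were lower without overlap (Adh1, Sucnr1 and Gpr155; 1.14% of genes) and 1 was higher (Adamtsl2; 0.822%). The 3 genes lower in both belong to 0.232% of tested genes. Between controls, GW3965 and vehicle libraries did not overlap for Sucnr1 and Syne3 (higher; 3.13% of genes) and for Adamtsl2 (lower; 2.71%), and in Gata4LKO livers they overlapped for all 6 (5.25% of genes did not overlap, in either direction). Because the genotype contrasts chose the genes and the others share their libraries, nothing further is read from the counts.

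**Figure D2:**
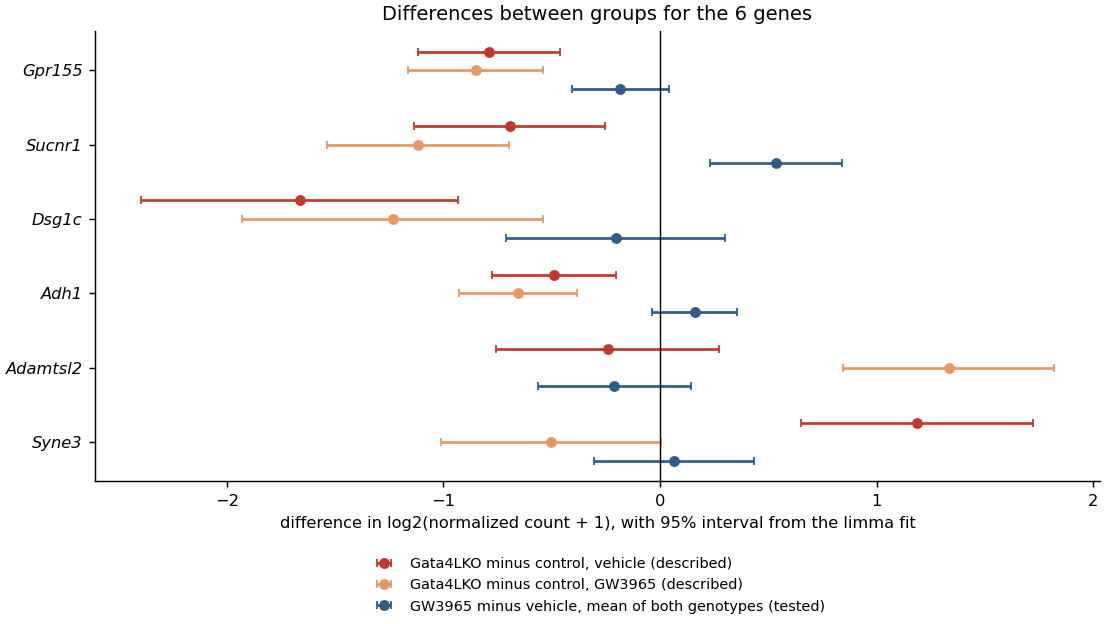
Log2 differences of the 6 genes (horizontal axis) with 95% intervals from the limma fit; red and orange show Gata4LKO minus control with vehicle and with GW3965, which chose the genes, and blue shows GW3965 minus vehicle averaged over genotypes. Of the blue intervals, that of Sucnr1 (0.23 to 0.84) lies wholly above 0 and the other 5 include 0.

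The response to GW3965 was then averaged over both genotypes. Under this design its estimate has a correlation of 0 with the vehicle genotype difference and of -0.08 with the GW3965 genotype difference. The averaged response is thus close to independent of the genotype differences that chose the genes. The genes and this test were, however, chosen with earlier results of these data known, a limit that these correlations do not cover. None of the 6 passed in limma (0 of 6 at an adjusted p below 0.05, where 1.78% of all tested genes passed); 1 had an unadjusted p below 0.05 (15.3% of all), edgeR called 0 and DESeq2 called 1. That gene was Sucnr1, at 0.54 ± 0.14 (log2), a 1.45-fold difference (limma adjusted p = 0.0709, edgeR adjusted p = 0.0586). Its 95% interval was 0.23 to 0.84. In control livers the succinate receptor had 363 ± 56.8 normalized counts with vehicle and 608 ± 82.2 with GW3965, without overlap. In Gata4LKO livers it had 225 ± 46.7 and 288 ± 88.6, with overlap. DESeq2 on the recovered reads called it (0.55, adjusted p = 0.0125), as did limma without replicate 18 of Gata4LKO GW3965 (0.61, adjusted p = 0.0209) or without the 5 libraries of high mitochondrial share (0.74, adjusted p = 0.0309). Of 17 limma fits that left out 1 library, only 1 called it, and the highest adjusted p was 0.156. Of 8 other alternatives, 6 did not call it. Among these were the term for Gm5345 reads (0.52, limma adjusted p = 0.188) and leaving out the 2 libraries with the fewest genes above 0 (0.48, limma adjusted p = 0.114).

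Most markers of Kupffer, endothelial and stellate cells had positive differences with averaged GW3965. Of 12 stellate cell and fibroblast markers 11 were positive (median 0.17, limma called none, 3 at an unadjusted p below 0.05, edgeR 0, DESeq2 1). Positive too were 4 of 5 tested cholangiocyte markers, 5 of 8 leukocyte markers and 2 of 8 hepatocyte markers. Of 11 Kupffer cell and macrophage markers 10 were positive (median 0.28; limma called Cd5l, 6 at an unadjusted p below 0.05, edgeR 1, DESeq2 5), and of 11 sinusoidal endothelial markers 10 were positive (median 0.30; limma called Cdh5, 5 at an unadjusted p below 0.05, edgeR 1, DESeq2 2), beside a median of -0.01 over all genes. Cd5l, a protein secreted by macrophages, rose by 0.72 ± 0.15 (limma adjusted p = 0.0139), and Cdh5, the cadherin of endothelial junctions, rose by 0.64 ± 0.10 (limma adjusted p = 0.00216). The Kupffer cell sum was 2429 to 3385 normalized counts in control vehicle and 4239 to 7071 in control GW3965, without overlap, and 4219.7 to 5155 and 4295 to 6381 in the Gata4LKO groups. The endothelial sum was 4227 to 4848 and 4469 to 7297 in the control groups, and 4401 to 5279 and 5013 to 7122 in the Gata4LKO groups. No marker of the Kupffer cell, endothelial and stellate cell lists was at 0 in a whole group, and the part of these markers in the Sucnr1 values was not tested.

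None of the other 5 genes passed for averaged GW3965, and their intervals all included 0. Gpr155 was at -0.18 ± 0.11 (limma adjusted p = 0.422, interval -0.41 to 0.04), Adh1 at 0.16 ± 0.09 (limma adjusted p = 0.425, interval -0.04 to 0.36) and Dsg1c at -0.21 ± 0.24 (limma adjusted p = 0.693, interval -0.71 to 0.30). Adamtsl2, at -0.21 ± 0.17 (limma adjusted p = 0.552), and Syne3, at 0.06 ± 0.18 (limma adjusted p = 0.882), each averaged values of opposite sign in the 2 genotypes, given above.

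No chromosomal neighbour of the 6 genes passed the threshold for genotype. For each gene the 3 tested genes before and the 3 after it, in the order of their starts, were examined, 36 in all. With vehicle limma called 0 of them (0.0149% of all tested genes were called, 6.15% at an unadjusted p below 0.05; 1 neighbour at an unadjusted p below 0.05, edgeR 0, DESeq2 0), and with GW3965 0 (0.0598% and 6.47% of all; 3 neighbours at an unadjusted p below 0.05, edgeR 0, DESeq2 0). Their vehicle differences nevertheless spanned -1.21 ± 0.73 (D430019H16Rik) to 1.96 ± 1.01 (Gm8276), so that the precision differed widely between them. Beside Gpr155, Scrn3 lay 3.69 kb away at -0.08 ± 0.08 with vehicle and 0.04 ± 0.08 with GW3965, and on the other side Wipf1 was at 0.11 ± 0.37 and 0.17 ± 0.35. Beside Sucnr1, the arylacetamide deacetylase gene Aadac was at -0.22 ± 0.17 and -0.57 ± 0.16 (limma adjusted p = 0.941 and 0.272), and Mbnl1 at 0.02 ± 0.16 and -0.01 ± 0.15.

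Dsg1c lies between other desmosomal cadherin genes. Dsc2 was at -0.15 ± 0.15 with vehicle and -0.41 ± 0.15 with GW3965 (limma adjusted p = 0.955 and 0.569), and Dsg2 at -0.12 ± 0.17 and -0.12 ± 0.16. Adh1 lies in the alcohol dehydrogenase cluster, where Adh7 was at -0.48 ± 0.33 and -0.59 ± 0.32 and the antisense gene Gm16559 at -0.88 ± 1.03 and -1.05 ± 0.98. Beside Adamtsl2, Cacfd1 and Sardh (sarcosine dehydrogenase) had differences between -0.09 and -0.05 in both comparisons. Next to Syne3, 3.24 kb beyond its 3′ end and on the same strand, the long noncoding gene Gm28875 had means of 19.02, 41.2, 37.7 and 24.4 normalized counts in control vehicle, Gata4LKO vehicle, control GW3965 and Gata4LKO GW3965, the same order as Syne3. Its differences were 1.07 ± 0.47 with vehicle and -0.61 ± 0.44 with GW3965 (limma adjusted p = 0.778 and 0.996). On the other side of Syne3, 22.9 kb away, Glrx5 did not share this pattern, at 0.0003 ± 0.20 with vehicle and -0.07 ± 0.19 with GW3965.

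**Figure D3:**
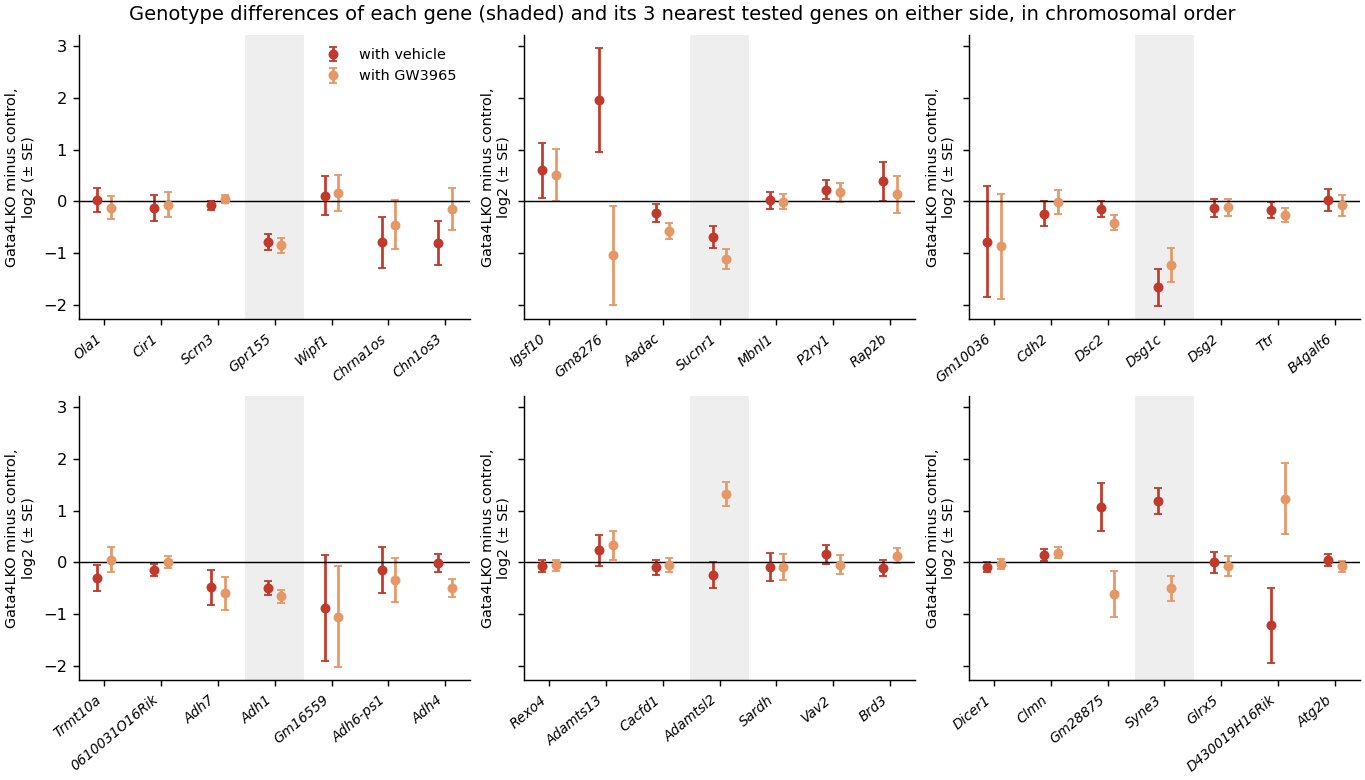
Log2 difference of Gata4LKO minus control (vertical axes, ± SE from limma) for each of the 6 genes (shaded) and its 3 nearest tested genes on either side in chromosomal order; distances are not to scale. Red points are vehicle and orange points GW3965, and no neighbour passed limma's adjusted threshold in either comparison.

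With GW3965 averaged over genotypes, limma called 2 of the 36 neighbours, where 1.78% of all tested genes were called (11 neighbours at an unadjusted p below 0.05, beside 15.3% of all tested genes, edgeR 2, DESeq2 2). P2ry1, an ADP receptor gene 915 kb from Sucnr1, rose by 0.83 ± 0.13 (limma adjusted p = 0.00201), and B4galt6, a lactosylceramide synthase gene 399.6 kb from Dsg1c, rose by 0.87 ± 0.15 (limma adjusted p = 0.00385). B4galt6 lost its call without the 5 libraries of high mitochondrial share, at a difference of 0.77 (adjusted p = 0.0666).

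Genes that work with each of the 6 were examined through 6 lists of 118 genes, of which 100 were tested. By genotype limma called 0 of the 100 with vehicle (8 at an unadjusted p below 0.05, edgeR 0, DESeq2 0) and 0 with GW3965 (10 at an unadjusted p below 0.05, edgeR 0, DESeq2 2). Of all tested genes, limma called 0.0149% and 0.0598%, and 6.15% and 6.47% were at an unadjusted p below 0.05. By GW3965 averaged over genotypes limma called 3 higher and 1 lower, against 1.34% and 0.441% of all genes. At an unadjusted p below 0.05 there were 22, beside 15.3% of all genes (edgeR called 3, DESeq2 6). The same shares of all genes apply to the counts of each list below. Around Adh1, alcohol, aldehyde and retinol dehydrogenases had negative genotype differences in 14 of 17 cases with vehicle and 15 of 17 with GW3965, with medians of -0.13 and -0.21 beside -0.01 over all genes in each. Of these, 3 and 3 were at an unadjusted p below 0.05 (edgeR 0 and 0, DESeq2 0 and 1). The most abundant per kb were the retinol dehydrogenase Rdh7 (-0.03 ± 0.26 and -0.38 ± 0.25) and the mitochondrial Aldh2 (-0.08 ± 0.14 and -0.02 ± 0.13). Hepatocyte markers were positive in 0 of 8 cases with vehicle (median -0.16) and 5 of 8 with GW3965 (median 0.03). Their part in this list's values was not tested. With GW3965 averaged over genotypes, Aldh3a2, which oxidizes fatty aldehydes, rose by 0.62 ± 0.13 (limma adjusted p = 0.0145). Aldh1a1, which makes retinoic acid, fell, with a difference of -0.51 ± 0.11 (limma adjusted p = 0.0176, and 0.0557 without the filter on low values).

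Around Sucnr1, none of 13 succinate dehydrogenase, succinate ligase and dicarboxylate transporter genes was called in the 3 comparisons by limma, edgeR or DESeq2 (1, 0 and 2 at an unadjusted p below 0.05). The dehydrogenase subunits Sdha and Sdhd, the most abundant per kb, differed by genotype by -0.10 ± 0.09 and 0.11 ± 0.20 with vehicle and by -0.09 ± 0.08 and -0.12 ± 0.19 with GW3965. Around Gpr155, none of 29 genes of lysosomal nutrient sensing was called by limma (2, 2 and 5 at an unadjusted p below 0.05, edgeR 0, DESeq2 0, 0 and 1). The cholesterol exporter of lysosomes Npc1 was at -0.15 ± 0.12 with vehicle and -0.33 ± 0.12 with GW3965, and the Ragulator subunit Lamtor2 at -0.39 ± 0.14 and -0.38 ± 0.13. These values have the sign of Gpr155 and did not pass. Of the 29 genes, however, 17 were positive with vehicle (median 0.03) and 9 with GW3965 (median -0.08), beside -0.01 over all genes in each.

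Around Dsg1c, 10 of 17 desmosomal genes were tested and none was called by genotype in limma (0 and 1 at an unadjusted p below 0.05, edgeR 0, DESeq2 0). Perp and the keratin Krt18, the most abundant per kb, differed by 0.03 ± 0.11 and 0.07 ± 0.16 with vehicle and by 0.09 ± 0.10 and -0.15 ± 0.15 with GW3965. Of the 10, 5 were negative with vehicle and 8 with GW3965 (medians -0.02 and -0.14), and 9 were positive with averaged GW3965 (median 0.23). In that last comparison 6 were at an unadjusted p below 0.05, beside 15.3% of all genes (edgeR called 1, DESeq2 2). The keratin Krt8 rose with GW3965 averaged over genotypes by 0.52 ± 0.10 (limma adjusted p = 0.0133, and 0.49 with an adjusted p of 0.0747 without the libraries of high mitochondrial share). Around Adamtsl2, 8 of 16 microfibril and ADAMTSL genes had positive genotype differences with vehicle (median 0.09) and 15 of 16 with GW3965 (median 0.31), beside -0.01 over all genes in each. With GW3965 limma called none (3 at an unadjusted p below 0.05, edgeR 0, DESeq2 1), with Ltbp4 at 0.14 ± 0.25 and Tgfb1 at 0.09 ± 0.22. The stellate cell and fibroblast markers were positive in 11 of 12 cases in that comparison (median 0.47) with sums that did not overlap, and their part in the list's values was not tested. Tgfb1 rose with averaged GW3965 by 0.65 ± 0.16 (limma adjusted p = 0.0452, not called by edgeR), a call kept in 3 of 17 fits that left out 1 library. The Kupffer cell and endothelial markers given above were positive in the same comparison, 10 of 11 in each list, as were 11 of 12 stellate cell and fibroblast markers. The part of these markers in the Tgfb1 value was not tested. Around Syne3, none of 15 genes of the LINC complex and nuclear lamina was called by limma, edgeR or DESeq2 in the 3 comparisons (1 in each at an unadjusted p below 0.05), with the partner Sun2 at -0.06 ± 0.23 and Tor1a at -0.06 ± 0.14 with vehicle.

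Profiles over the 17 libraries were compared between each of the 6 genes and the other tested genes by Pearson correlation of log2(normalized count + 1). The values are descriptions, the highest among the tested genes, and they share libraries, depth and the genotype difference that chose the genes. The organic anion transporter gene Slc17a4 was the most alike to Gpr155 (r = 0.93), to Adh1 (r = 0.86) and to Dsg1c (r = 0.86). After group means were removed these values were 0.59, 0.48 and 0.53. Next to Gpr155 came the aldo-keto reductase Akr1c19 (r = 0.92, and 0.77 within groups) and the carboxylesterase Ces2g (0.88 and 0.54). Sucnr1 was most like the isocitrate dehydrogenase Idh1 (0.84), the sterol esterifying enzyme Soat2 (0.84) and the lipoprotein assembly factor Mttp (0.84), with 0.31, 0.56 and 0.35 within groups.

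Syne3 was most like the dicarboxylate transporter Slc13a2 (0.89), the transcription factor Foxk1 (0.88) and the RNA-binding protein Hnrnpl (0.86), with values of 0.83, 0.84 and 0.84 within groups. Slc13a2 itself had means of 19.2 ± 3.78 in control vehicle, 41.99 ± 9.23 in Gata4LKO vehicle, 38.1 ± 15.1 in control GW3965 and 23.8 ± 12.3 in Gata4LKO GW3965. For Adamtsl2 the most alike were Rps13 (0.86), Clba1 (0.83) and 2900076A07Rik (0.80), genes with means of 26.9, 5.76 and 31.4 normalized counts, within-group values of 0.64, 0.80 and 0.80, and few reads.

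Dsg1c and Adh1 were also among each other's 3 most alike genes (r = 0.84), and Gpr155 was among those of Dsg1c (0.85). Of the 15 pairs among the 6 genes, Dsg1c and Adh1 had the highest correlation of deviations from group means, r = 0.73 over 17 libraries (Spearman 0.64), and r = 0.65 without replicates 8 and 18, the libraries farthest from the Dsg1c median. The lowest was -0.37, between Adh1 and Adamtsl2. Replicate 6 of Gata4LKO vehicle was above its group mean for both Dsg1c (0.73) and Adh1 (0.34), and replicate 8 below for both (-0.86 and -0.37), on the log2 scale. In the same group, replicate 5 was above the mean for Dsg1c (0.72) and near it for Adh1 (-0.0006). Replicate 7 was below the mean for Dsg1c (-0.60) and slightly above it for Adh1 (0.03). The pair was singled out after its value was seen.

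**Figure D4:**
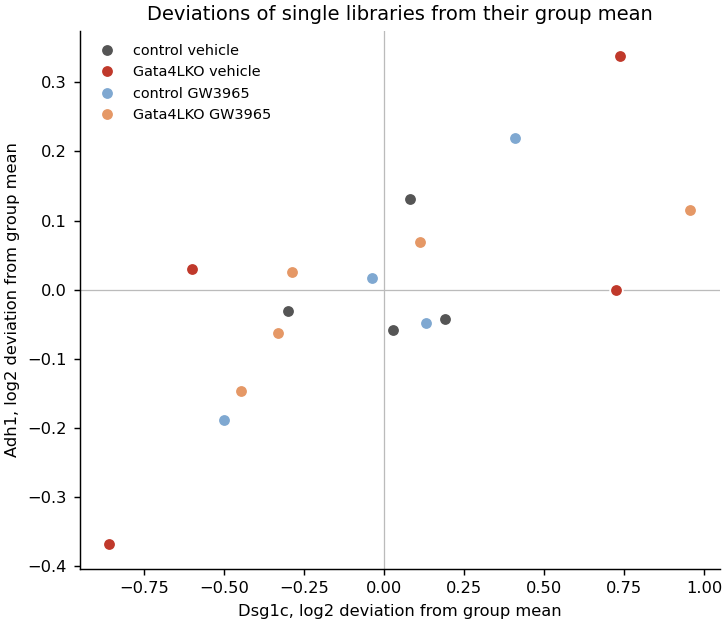
Deviation of each of the 17 libraries from its group mean in log2(normalized count + 1), for Dsg1c (horizontal axis) and Adh1 (vertical axis), coloured by group. Replicate 8 of Gata4LKO vehicle lies lowest for both genes, at -0.86 and -0.37, and the correlation over the points is 0.73.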

How the data were processed

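Per the submitters' processing notes, the tools were STAR 2.6.0c, FastQC and DESeq2, with mm10 as the build; counter, annotation and strandedness are not stated there. The authors deposited normalized counts, a signal equal to a gene's reads over its library's size factor, in which 100% of values were whole multiples of 1 read within 0.05 read. The authors also deposited comparison tables, with log2 fold changes and adjusted p-values per the file headers; values from them are named as theirs. The labels do not say that libraries came from separate mice, so p-values measure the spread between libraries.

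Genes with at least 10 normalized counts in at least 4 libraries were kept. Main results are from limma-trend (limma 3.58.1, R 4.3.3) on log2(normalized count + 1), 1 coefficient per title group, all 17 libraries, Benjamini-Hochberg adjustment over 13379 genes and a threshold of 0.05; differences of low genes are understated on this scale. edgeR 4.0.16 (quasi-likelihood, TMM) and DESeq2 1.42.0 were run on the recovered reads. The fit was tested on simulated counts first.

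Positions and merged exon lengths are from GENCODE M21 (mm10), which held 24656 of 24676 gene identifiers. The 6 genes, lists and tests were chosen with earlier results of these data known. Named besides the 6 genes were the 3 most correlated genes of each, called or most abundant partners per kb, called or nearest neighbours, and Gata4 and Gm5345.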

Additional observations from a re-analysis of the deposited data

Results flagged for a closer look

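Of the 24 combinations of gene and group, 3 held a library whose gap to its nearest neighbour exceeded the 95% critical value of Dixon's test, where chance gives about 1 in 20. In Gata4LKO GW3965, replicate 18 had 335 normalized counts of Dsg1c, with a gap of 0.712 of the group's range against a critical value of 0.71. In control vehicle, replicate 2 had 21404 normalized counts of Adh1 (0.868 of the range, critical value 0.829). In control GW3965, replicate 12 had 81.3 normalized counts of Adamtsl2 (0.855 of the range, critical value 0.829). Replicate 18 is also 1 of the 5 libraries of high mitochondrial share, with 16.9% of its counts from mitochondrially encoded genes; replicate 2 and replicate 12 are not. The part of that share in the Dsg1c value was not tested.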

How the results depend on the processing

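The genotype differences of the 6 genes moved by less than 1 SD between replicates in 208 of 210 alternatives. Many of these could hardly move them. Dropping the filter or fitting only the groups compared returns the same difference, and leaving out 1 library shifts a group mean by a part of its deviation. The count is therefore a weak check. The alternatives that moved further came with the term for Gm5345 reads, chosen after the data were seen, at -0.50 for Gpr155 and 0.18 for Adamtsl2 with vehicle. Only control GW3965 held libraries of both kinds, replicates 9 and 10 with few Gm5345 reads and 12 and 13 with more. The term was thus estimated from that group alone, and these shifts carry no information from vehicle libraries. Averaged over genotypes, GW3965 effects of the 5 genes other than Sucnr1 were called in 0 of 125 alternatives, with Syne3 at -0.0240 without replicate 9 of control GW3965 and -0.0179 without replicate 18 of Gata4LKO GW3965. Leaving out single libraries gave 0.46 to 0.61 for Sucnr1 and -0.0240 to 0.16 for Syne3. Sucnr1 passed with DESeq2 (0.55), without the 5 libraries of high mitochondrial share (0.74) and in 1 of 17 fits without a single library. It did not pass in the other alternatives, and its adjusted p ranged from 0.0125 to 0.188 over all alternatives. Genes called for averaged GW3965 numbered 238, 527 with DESeq2, and 142 to 335 without single libraries. That count moved by over 1.5 times, downwards, without replicates 3 or 4 of control vehicle, 7 or 8 of Gata4LKO vehicle, 10 of control GW3965 or 18 of Gata4LKO GW3965. Genotype with vehicle gave 2 calls, 50 with DESeq2, 14 without the 5 libraries, 20 with only the groups compared, 0 with the Gm5345 term, 1 without the 2 libraries with the fewest genes above 0, and 0 to 3 without single libraries. Genotype with GW3965 gave 8, 5 with edgeR, 80 with DESeq2, 1 with only the groups compared, 2 with the Gm5345 term, and 2 to 21 without single libraries, with 21 reached without replicate 17 of Gata4LKO GW3965. No paired analysis was possible because the library numbers are not shared between groups. Depth limits Adamtsl2 and Syne3 most, with as few as 31 reads in a library.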
